A study of Oryza sativa with 12 samples.

Results

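The genes described are 4 stress-responsive transcription factor genes of rice, out of 15140 genes that could be read from the array. *SNAC2* and *JAMYB* were found by symbol or synonym in the RefSeq gene table (assembly ASM3414082v1) and joined to the probe gene table by gene number, and *NAC077* (LOC_Os12g03050) and LOC_Os05g37060, a gene for a MYB transcription factor, were each read from a stated probe set. Each gene had 1 probe set, so no choice among probe sets was needed. The probe gene table gives the former probe set to *NAC077*, whereas it pairs the latter with the unnamed gene LOC4338925. The link from that gene to LOC_Os05g37060 was taken as given and was not checked here.

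Three-week-old seedlings (age 3 weeks) of *Oryza sativa* cultivar Pusa Basmati 1, grown in Yoshida medium, were either wild type (WT) or of the transgenic line H49, which carries *OsHOX24* under a ubiquitin promoter (*UBQ::OsHOX24*). They were kept in water (control) or dried between folds of tissue paper for 3 h, a treatment the labels name drought and the paper names desiccation stress (DS). There were 4 groups of 3 biological replicates, called WT control, WT DS, H49 control and H49 DS, on 12 Affymetrix arrays. H49 is a single transgenic line, so an effect of the transgene and of the line cannot be told apart.

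NAC proteins are transcription factors found only in plants, named after the NAM, ATAF and CUC proteins that share their DNA-binding domain. *SNAC2*, also called *OsNAC6*, belongs to the stress-responsive NAC group and is known for its induction by drought, salt, cold and abscisic acid in rice. MYB proteins bind DNA through repeats of the MYB domain and act in stress, hormone and developmental programmes. *JAMYB* is a rice MYB gene known for its induction by jasmonic acid, the hormone of wounding and defence.

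Values are log2 signals after robust multi-array average (RMA) normalization, in which a step of 1 is a change of 2-fold. They compare a probe set between arrays, not a gene with another gene. The array medians lay between 4.32 and 4.46, and no detection calls accompany the values. *OsHOX24*, the transgene, checks the labels: its values in control were 5.61, 4.11 and 2.83 in WT and 4.56, 3.57 and 3.23 in H49, and after DS 9.38, 10.29 and 10.06 in WT and 10.17, 9.44 and 9.96 in H49. The arrays labelled H49 were therefore not higher than WT in either treatment (log2 difference -0.39, 95% confidence interval -1.67 to 0.88 in control, and -0.06, -1.33 to 1.22 after DS). The construct carried the coding region alone, and the part of the gene that the probe set reads is not given in the sources used here, so this check does not settle the over-expression label either way. Below, H49 stands for the arrays labelled H49.

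After DS all 4 genes were higher than in control in both genotypes, with no overlap between the 3 DS and the 3 control arrays of either genotype. Of all 54922 probe sets, 14.3% had such a separation upwards in WT and 16.8% in H49. The largest rise among the 4 was that of the MYB gene LOC_Os05g37060, followed in WT by *NAC077*, *JAMYB* and *SNAC2*. A probe set was called where limma gave a Benjamini-Hochberg adjusted p of at most 0.05 over all probe sets and a change of at least 2-fold. Under this rule, all of *SNAC2*, *JAMYB* and *NAC077* were called up in WT, against 2.71% of all probe sets, and *SNAC2* and *JAMYB* but not *NAC077* in H49, against 2.78%. The genes were chosen with results of these arrays known, so these counts are not independent evidence of a response.

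**Figure D1:**
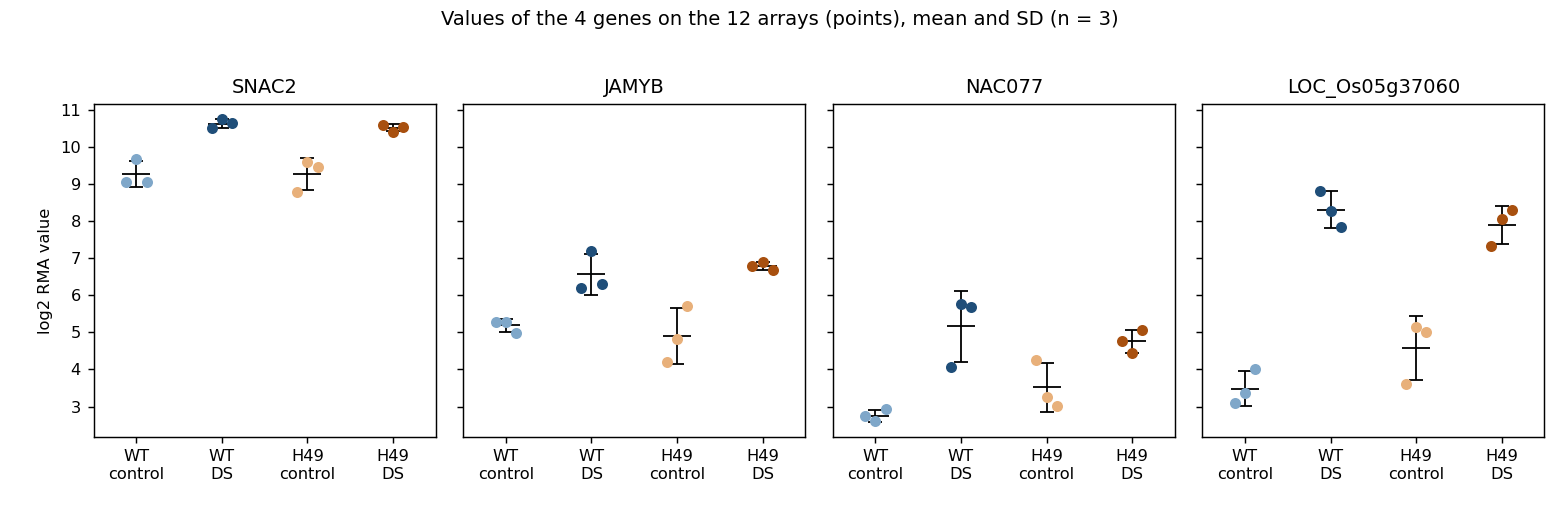
The log2 RMA value (vertical axis) of each of the 4 genes is plotted for WT and H49 seedlings in control and after DS; points are the 3 arrays of a group, in replicate order from left to right, horizontal bars the mean and whiskers 1 SD. In every panel the DS arrays of a genotype lie above its control arrays, from a gap of 0.18 for NAC077 in H49 to one of 3.83 for LOC_Os05g37060 in WT.

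*SNAC2* was the brightest of the 4 probe sets, with 97.8% of all probe sets below its mean in WT control. Its values were 9.06, 9.67 and 9.06 in WT control and 10.50, 10.74 and 10.63 in WT DS. In H49 they were 8.78, 9.59 and 9.45 in control and 10.59, 10.40 and 10.52 after DS. The lowest DS array stood 0.83 above the highest control array in WT and 0.81 above it in H49, and the SD fell from 0.35 and 0.43 in the control groups to 0.12 and 0.09 in the DS groups. The rise was 2.56-fold in WT (log2 difference 1.36, SE 0.24, limma adjusted p = 0.0043) and 2.34-fold in H49 (1.23, SE 0.24, adjusted p = 0.0064). Over both genotypes together it was 1.29 (adjusted p = 0.00023), and the exact permutation test within genotypes, two-sided over 400 divisions, gave p = 0.005, the smallest these divisions allow; within a genotype 3 arrays against 3 cannot go below 0.1. Without H49 control replicate 1, the lowest of the 12 arrays for this gene, the difference in H49 was 0.98, under the 2-fold limit, with an adjusted p of 0.025. In the order of group means, WT control (9.26) and H49 control (9.27) did not differ beyond their spread, nor did H49 DS (10.50) and WT DS (10.62), whose arrays overlapped.

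The *SNAC2* locus overlaps that of a long noncoding RNA gene, LOC136354785, in the gene table. No probe set is listed for the latter, and signals from overlapping genes cannot be told apart here. The nearest measured gene on one side, LOC4325004, went the other way, from a mean of 7.16 to 6.29 in WT (log2 difference -0.88, adjusted p = 0.043) and from 7.41 to 6.02 in H49 (-1.39, adjusted p = 0.0048). Those on the other side, LOC4325007 and LOC4325008, differed by at most 0.34 in either genotype with adjusted p-values of 0.39 to 0.95. The rise was thus measured at *SNAC2* and not at the 3 measured genes beside it.

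*JAMYB* values were 5.28, 5.29 and 4.98 in WT control and 6.18, 7.19 and 6.30 in WT DS. In H49 they were 4.19, 4.82 and 5.70 in control and 6.78, 6.89 and 6.69 after DS. Its H49 control arrays were the most spread of its groups (SD 0.76) and its H49 DS arrays the closest (SD 0.10). The rise was 2.59-fold in WT (log2 difference 1.37, SE 0.35, limma adjusted p = 0.026) and 3.69-fold in H49 (1.88, SE 0.35, adjusted p = 0.0055). Over both genotypes it was 1.63 (adjusted p = 0.00067; exact permutation within genotypes p = 0.005, again the smallest possible). The call in WT did not hold without WT control replicate 1 (adjusted p = 0.06), WT control replicate 3 (0.091) or WT DS replicate 2 (0.094), although the difference stayed between 1.06 and 1.56 with any 1 array left out. By mean the order was H49 control (4.90), WT control (5.18), WT DS (6.56) and H49 DS (6.79), with overlapping arrays between the control groups and between the DS groups. The genes on either side of *JAMYB* for which probe sets are listed, LOC4351129, LOC4351130 and LOC4351132, differed by at most 0.45 after DS, with adjusted p-values from 0.23 upwards.

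*NAC077* was the dimmest of the 4 in WT control, where its mean was under the lowest first quartile of the arrays (2.93). Its values there were 2.74, 2.60 and 2.93, against 4.06, 5.75 and 5.67 in WT DS. In H49 they were 4.26, 3.26 and 3.02 in control and 4.76, 4.44 and 5.06 after DS. WT DS replicate 1 was well under the other WT DS arrays, and H49 control replicate 1 well over the other H49 control arrays. An earlier analysis of these arrays had picked this probe set by fold changes, so the adjusted p-values given for it are not independent evidence of a response. The rise in WT was 5.30-fold (log2 difference 2.41, SE 0.43, limma adjusted p = 0.0049). In H49 the difference of 1.24 (SE 0.43, 2.36-fold) was not called (adjusted p = 0.084), and its 95% confidence interval ran from 0.29 to 2.19. It was called without WT DS replicate 1, which enters only through the shared estimate of spread (adjusted p = 0.021), and without H49 control replicate 1 it was 1.62, with an adjusted p just over the threshold of 0.05. Over both genotypes the rise was 1.82 (adjusted p = 0.0012). With no detection calls it is not known whether the WT control arrays were above background.

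*NAC077* was also the only one of the 4 genes whose H49 control arrays all lay above the WT control arrays, by 0.09 on the log2 scale, as did 3.46% of all probe sets. The difference of the means was 0.76 (95% confidence interval -0.19 to 1.71, adjusted p = 1). In mean level the groups ran from WT control (2.76) through H49 control (3.51) and H49 DS (4.75) to WT DS (5.16), and the DS groups of the genotypes overlapped.

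The gene beside *NAC077* on chromosome 12, LOC4351369, has no name in the tables used here and was picked out after its values were seen. Its values were 2.94, 2.05 and 1.73 in WT control and 4.35, 5.27 and 4.93 in WT DS. In H49 they were 1.92, 1.92 and 1.68 in control and 4.51, 5.51 and 5.17 after DS. It rose with DS in both genotypes. Its mean in both control groups was under the lowest first quartile of the arrays (2.93), and whether it was above background there is not known, as for *NAC077*. The log2 difference was 2.61 in WT (SE 0.35, adjusted p = 0.00095) and 3.22 in H49 (SE 0.35, adjusted p = 0.00024). Of the next measured genes, the pseudogene LOC4351368 differed by 0.11 in WT and 0.30 in H49, and LOC4351371 by -0.19 and 0.32, none past the test (adjusted p 0.56 to 0.85). Among the measured genes of this stretch, the 2 that were higher after DS therefore lie side by side.

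**Figure D2:**
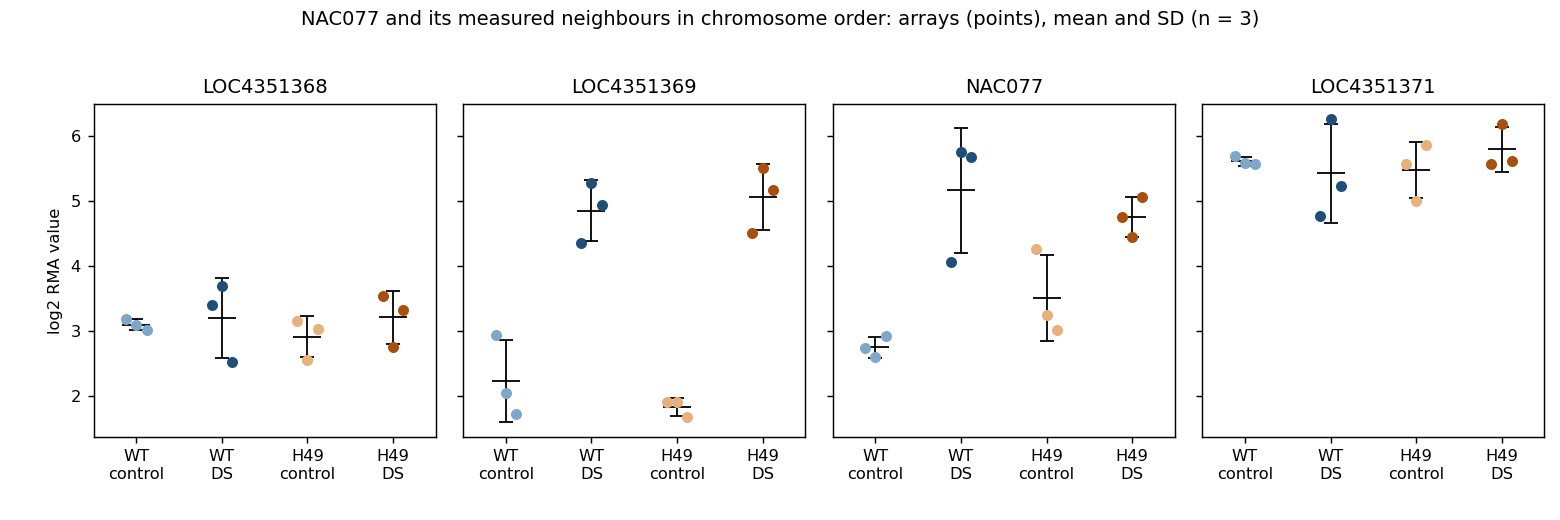
The log2 RMA value (vertical axis) of NAC077 and of the 3 measured genes nearest to it, in chromosome order from left to right, is plotted by group; points are the 3 arrays, horizontal bars the mean and whiskers 1 SD. NAC077 and LOC4351369 were higher after DS, while the group means of LOC4351368 lay between 2.92 and 3.22 and those of LOC4351371 between 5.42 and 5.79.

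LOC_Os05g37060 had the widest range of the 4. An earlier analysis of these arrays had picked its probe set by fold changes, so its differences between DS and control are given as a description with intervals and no test. Its values were 3.08, 3.37 and 3.999 in WT control and 8.82, 8.26 and 7.83 in WT DS. In H49 they were 3.595, 5.14 and 4.99 in control and 7.32, 8.06 and 8.30 after DS. The lowest DS array lay 3.83 above the highest control array in WT and 2.18 above it in H49. The difference was 4.82 in WT, or 28.3-fold (95% confidence interval 3.88 to 5.77), and 3.32 in H49, or 9.96-fold (2.37 to 4.26). With 1 array left out the WT difference stayed between 4.56 and 5.08 and that of H49 between 2.83 and 3.604. The groups were ordered WT control (3.48), H49 control (4.58), H49 DS (7.89) and WT DS (8.30), and both neighbouring pairs of the same treatment had overlapping arrays. No probe set is listed for the nearest genes on either side of it.

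The second question of the design is whether the response to DS differed between H49 and WT. No probe set was called for the difference of the responses (0% of 54922, 1632 at an unadjusted p under 0.05 and smallest adjusted p 1.0), nor between the genotypes in control (0%, 1541 unadjusted), after DS (0%, 2786 unadjusted) or over both treatments (0%, 2568 unadjusted). Student's t-test gave 0 after Benjamini-Hochberg adjustment in control and after DS as well. With replicate number 1 left out of every group, limma called 12 probe sets between the genotypes in control, 5 after DS, 62 over both treatments and 0 for the difference of the responses, with none of the 4 genes called in control, after DS or for the responses. None of the 4 genes was called in any of these comparisons, and for *SNAC2*, *JAMYB* and *NAC077* the adjusted p-values lay between 0.97 and 1.

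For *SNAC2*, the rise in H49 less the rise in WT was -0.13 (95% confidence interval -0.86 to 0.61), and H49 minus WT was 0.01 in control (-0.51 to 0.53) and -0.12 after DS (-0.64 to 0.40). For *JAMYB*, the responses differed by 0.51 (-0.58 to 1.60), with H49 minus WT at -0.28 in control and 0.23 after DS. The exact permutation tests within treatments of H49 against WT gave p = 0.79 for *SNAC2* (difference -0.05 over both treatments) and p = 0.94 for *JAMYB* (-0.03). Neither gene showed a difference beyond the spread of its replicates, and as ratios the intervals of the difference of responses ran from 0.55 to 1.52 for *SNAC2* and from 0.67 to 3.04 for *JAMYB*.

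For the other pair the estimated rise was smaller in H49, and the difference did not pass the test. An earlier analysis of these arrays had picked both probe sets by fold changes, so their shared pattern is a description of selected probe sets. The responses differed by -1.17 for *NAC077* (95% confidence interval -2.51 to 0.18, adjusted p = 1) and by -1.50 for LOC_Os05g37060 (-2.84 to -0.17, adjusted p = 1). In both genes the H49 mean was higher in control, by 0.76 and 1.09, and lower after DS, by 0.41 and 0.41. Leaving out 1 array at a time kept the difference of responses between -1.72 and -0.79 for *NAC077* and between -1.996 and -1.22 for LOC_Os05g37060. H49 control replicate 1 stood apart from the other H49 control arrays in both genes, but as the highest value for *NAC077* and the lowest for LOC_Os05g37060.

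**Figure D3:**
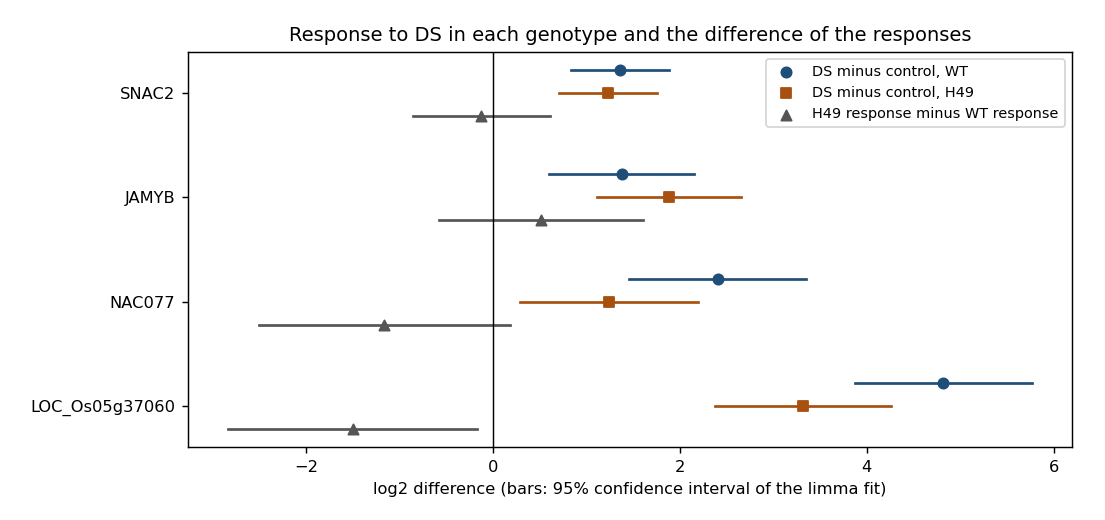
The log2 difference (horizontal axis) between DS and control is plotted for WT (circles) and H49 (squares), with the H49 response less the WT response (triangles), for the 4 genes on the vertical axis; bars are 95% confidence intervals. The DS intervals all lie above 0, and the differences of responses were -0.13 for SNAC2, 0.51 for JAMYB, -1.17 for NAC077 and -1.50 for LOC_Os05g37060, none of them called.

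In a group of 3 arrays some array is always the lowest and some the highest, so the places of single replicates are a description. WT DS replicate 1 gave the lowest value of its group for 3 of the 4 genes (*SNAC2*, *JAMYB* and *NAC077*) and the highest for the fourth. H49 control replicate 1 was likewise the lowest for 3 (*SNAC2*, *JAMYB* and LOC_Os05g37060) and the highest for *NAC077*. In the H49 DS group no replicate was lowest for more than 2 of the genes.

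Within the NAC family, found by name in the gene table, 7 of 10 genes were measured. The list was made from symbols and synonyms alone, so it need not hold the whole family. Of these, 2 were called up in WT (*SNAC2* and *NAC077*), 2 in H49 (*SNAC2* and *ONAC010*) and 0 down in either. The 2 called in WT are among the 4 genes described, and no other measured gene of the list was called there. Over all probe sets 2.71% were called up in WT and 2.78% in H49, and 5.77% and 6.21% down. The lists here and below hold 1 probe set a gene. In a fit with 1 probe set a gene the shares were larger, at 747 up and 1283 down of 15140 in WT. In H49 they were 797 up and 1408 down. The median log2 difference of the 7 was 0.58 in WT and 0.48 in H49, against 0.05 and 0.06 over all probe sets. *ONAC010*, named for its call after its values were seen, was dim in control, at 3.21, 2.75 and 3.33 in WT and 2.74, 2.29 and 3.21 in H49. It reached 3.93, 3.81 and 4.17 in WT DS and 3.74, 3.90 and 4.29 in H49 DS, a rise of 1.23 in H49 (adjusted p = 0.0095) and a difference of 0.87 in WT (adjusted p = 0.047), under the 2-fold limit. *OsNAC8*, *OsNAC4*, *OsNAC3* and *ONAC045* had differences from 0.08 to 0.58 in either genotype, none past the test (adjusted p 0.23 to 0.94).

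The stress-responsive NAC subgroup, also found by symbol and synonym, had 3 of 5 genes measured, and no probe set is listed for the others. As with the NAC list, these 5 need not be the whole subgroup. Of those measured, *SNAC2* was the one called, upwards in both genotypes. Over all probe sets 2.71% were called up in WT and 2.78% in H49. *SNAC2* is itself among the genes chosen for description. Whether it stands alone in the subgroup is not known, since the unmeasured genes could not be read. *OsNAC4* differed by 0.58 in WT and 0.37 in H49, and *OsNAC3* by 0.12 and 0.08. The median of the 3 was 0.58 in WT and 0.37 in H49.

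Of the MYB genes found by name, 6 of 11 were measured. LOC_Os05g37060 is not among them, since its gene has no name in the table. In each genotype 2 were called up, *JAMYB* and *OsMYB3R-2*, and 0 down, where 2.71% of all probe sets were called up in WT and 2.78% in H49, and 5.77% and 6.21% down. *JAMYB* is itself among the genes chosen for description, so *OsMYB3R-2* was the only call outside that choice. The list had a median of 0.33 in WT and 0.55 in H49. *OsMYB3R-2*, a gene known for a MYB protein with 3 repeats that raises cold tolerance, had values of 4.63, 5.10 and 4.59 in WT control and 5.58, 6.02 and 5.82 in WT DS. In H49 it had 5.04, 4.81 and 4.53 in control and 6.03, 6.10 and 5.75 after DS. Its rise was 1.04 in WT (SE 0.21, adjusted p = 0.0088) and 1.17 in H49 (SE 0.21, adjusted p = 0.0045), with no overlap between DS and control arrays in either genotype. Of all probe sets, 14.3% separated upwards in this way in WT and 16.8% in H49.

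Another pair of MYB genes, singled out after their values were seen, went in other directions. *OsMYB2* had lower means after DS, by 1.18 in WT and 1.43 in H49, but was not called in either (adjusted p = 0.18 and 0.11), and its WT control arrays spread from 6.11 to 7.87. Over both genotypes together it was called down (log2 difference -1.30, SE 0.38, adjusted p = 0.026), the one MYB gene of the list so called. In that comparison 4347 of all 54922 probe sets were called down, so 1 of 6 listed genes is not a result about the list. *OsMYBS1*, a gene for a MYB protein of sugar-regulated amylase expression, differed by -0.56 after DS in WT and by 0.59 in H49 (adjusted p = 0.13 and 0.11). Its values after DS were 5.52, 5.55 and 5.64 in H49 and 4.36, 4.63 and 4.79 in WT. The share of all probe sets with H49 above WT in this way after DS was not counted. In control it was 3.46%. The difference of the responses was 1.15 (SE 0.32, unadjusted p = 0.0037) and did not pass adjustment over all probe sets (adjusted p = 1). *OsGAMyb*, which acts in gibberellin signalling, and *OsMPH1* differed by -0.08 to 0.50 and were not called.

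**Figure D4:**
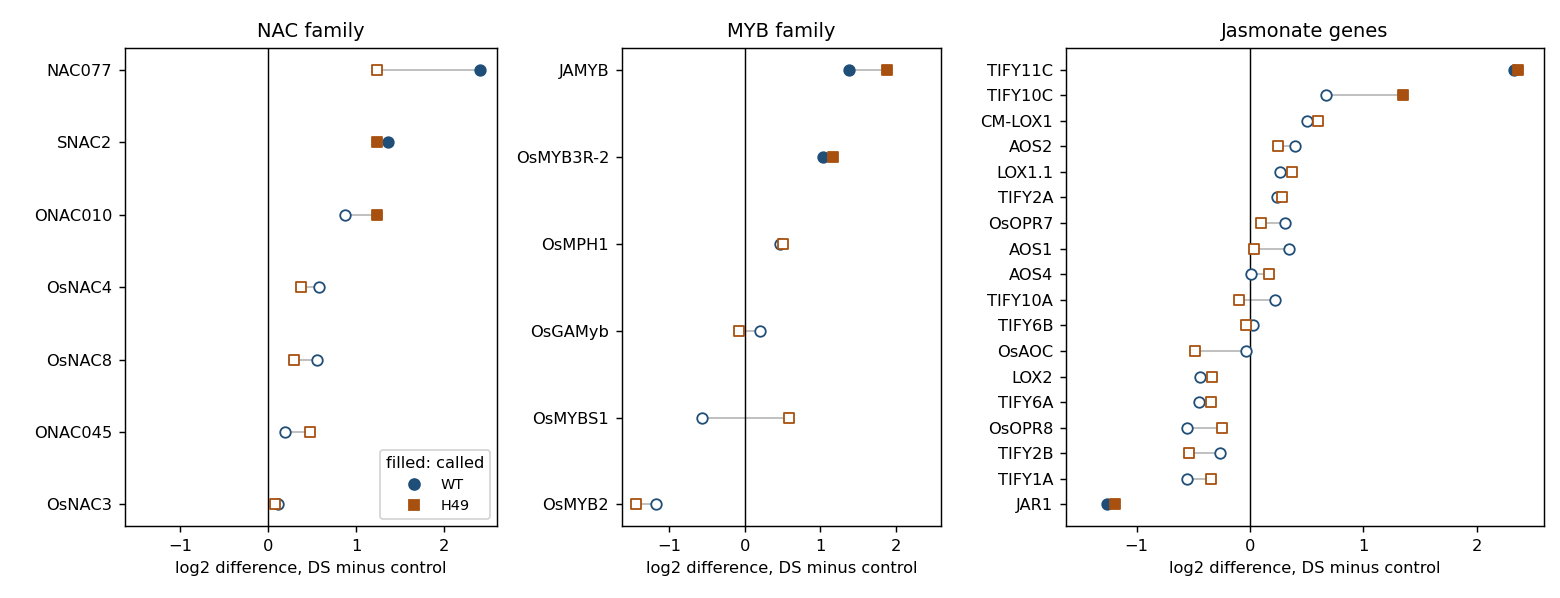
The log2 difference between DS and control (horizontal axis) is plotted for the measured genes of the NAC family, the MYB family and the jasmonate list, in WT (circles) and H49 (squares); filled symbols were called and grey lines join the genotypes. SNAC2, JAMYB and OsMYB3R-2 were called up in both genotypes, NAC077 in WT, and TIFY11C and JAR1 were called in opposite directions.

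Since *JAMYB* is known as a jasmonate-responsive gene, genes named for jasmonate synthesis and signalling were counted beside it. The list was made by name and took in every TIFY gene, so it need not hold jasmonate genes alone. *TIFY1A*, *TIFY2A* and *TIFY2B* also carry GATA names in the gene table, and none of them was called. Of 35 genes on the list, 18 were measured. In WT, 1 was called up and 1 down, and in H49, 2 were called up and 1 down. The shares over all probe sets were 2.71% up and 5.77% down in WT and 2.78% up and 6.21% down in H49. With 1 probe set a gene they were larger, at 747 up and 1283 down of 15140 in WT. In H49 these were 797 up and 1408 down. Against these, 1 of 18 called up in WT and 1 of 18 called down in either genotype are near the background. The 2 called up in H49 are too few to set apart from it. The list had medians of 0.12 and -0.00 against 0.05 and 0.06 over all probe sets. *TIFY11C*, a gene of the JAZ repressors that jasmonate signalling removes and re-induces, rose by 2.33 in WT (SE 0.42, adjusted p = 0.0051) and 2.36 in H49 (SE 0.42, adjusted p = 0.0043). *TIFY10C*, of the same repressor family and named for its call after its values were seen, rose by 1.35 in H49 (adjusted p = 0.0033) and differed by 0.67 in WT (adjusted p = 0.079). *JAR1*, whose enzyme joins jasmonic acid to isoleucine to form the active hormone, fell in both genotypes, with log2 differences of -1.26 in WT (adjusted p = 0.0044) and -1.19 in H49 (adjusted p = 0.0055). The synthesis genes for allene oxide synthase (*AOS1*, *AOS2*, *AOS4*), allene oxide cyclase (*OsAOC*) and 12-oxophytodienoate reductase (*OsOPR7*, *OsOPR8*) differed by -0.55 to 0.40, and none was called.

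The named genes whose values followed each of the 4 most closely were ranked by Pearson r over the 12 arrays. The arrays fall into a control and a DS set, which any DS-responsive gene shares, and r is given as a description. Out of 1740 other named genes, 61 had an r above 0.9 with *SNAC2*, 29 with *JAMYB* and 15 with *NAC077*, as did 63 of 1741 with LOC_Os05g37060.

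Closest to *SNAC2* were *OsRSH3* (r = 0.97), of the enzymes that make the alarmone ppGpp, *OsCIPK29* (0.97), *CML16* (0.96), *OsCIPK09* (0.96) and *OsPUB4* (0.96). CIPK genes encode protein kinases that calcineurin B-like calcium sensors bind, CML genes calmodulin-like proteins and PUB genes U-box ubiquitin ligases. *OsCIPK29* also followed *SNAC2* within the groups, with an r of 0.92 between deviations from the group means. For *JAMYB* the closest were *OsCIPK02* (r = 0.95), the protein phosphatase 2C gene *OsPP2C44* (0.94), *OsNOL* (0.94), of chlorophyll b breakdown, *OsCIPK16* (0.93) and *OsCIPK09* (0.92). *OsCIPK09* thus stood in both lists. It rose by 1.66 in WT and 1.73 in H49 (adjusted p = 0.0019 and 0.0013).

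Closest to *NAC077* were *Villin-2* (r = 0.94), of an actin-binding protein, *CML4* (0.94), *TGA2.2* (0.94), of a bZIP transcription factor, *OsBC1* (0.93) and *CBL3* (0.93), of a calcineurin B-like calcium sensor. Within the groups *TGA2.2* and *CBL3* both had an r of 0.88 with *NAC077*. LOC_Os05g37060 was followed by *OsBIPP2C2* (r = 0.97) and *OsPP2C02* (0.96), both protein phosphatase 2C genes, *CML16* (0.96), *OsPSY3* (0.95), of phytoene synthase in carotenoid synthesis, and *OsHMA2* (0.95), of a zinc and cadmium transporter. Within the groups these 5 had r values from -0.08 to 0.57 with LOC_Os05g37060. Those of the genes nearest to the other 3 ran from 0.62 to 0.92. The 2 ranges are not a like comparison, since LOC_Os05g37060 had the largest rise with DS, which weighs more in the r used to pick its genes.

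Markers of green tissue moved with the treatment. Of 8 leaf markers 3 were measured, the light-harvesting genes *CAB1R* and *CAB2R* and the protochlorophyllide reductase gene *PORB*, and 2 of them (*CAB2R* and *PORB*) were called down in both genotypes, against 5.77% of all probe sets in WT and 6.21% in H49. Their summed linear signal ranged from 1109 to 2297 in the control arrays of either genotype and from 239 to 664 in the DS arrays. Of 8 root markers 4 were measured. In WT their sum ranged from 318 to 351 in control and from 124 to 147 after DS. In H49 it ranged from 133 to 272 in control and from 82 to 162 after DS, with overlap. The control ranges of the genotypes did not overlap, though none of the 4 was called between the genotypes in control. The silicon transporter gene *LSI2* was called down after DS in both genotypes. The other 3 (*NAS1*, *NAS2* and *PHO1;2*) differed by 0.02 to 0.78 and were not called, and the median of the 4 was 0.07 in WT and 0.37 in H49. The part of such shifts in the rise of the 4 genes was not tested. In whole seedlings, fewer cells of a type and less RNA per cell cannot be told apart.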

How the data were processed

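Per the labels, total RNA of whole seedlings (500 ng) was labelled and hybridised to Affymetrix arrays; the labels name a 3' IVT PLUS kit and the paper a WT PLUS kit. The deposited values are log2 signals for 54922 probe sets, which the authors normalized by RMA; the array's genome build is not given in the sources used here, so no coordinates are printed. Of the probe sets, 15829 had 1 gene in the probe gene table, 440 had several (not used for names) and 38653 are unnamed here. Gene names came from the RefSeq gene table (assembly ASM3414082v1).

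limma 3.58.1 in R 4.3.3 was fitted to all probe sets with 1 mean for each of the 4 groups and no block, followed by eBayes and Benjamini-Hochberg adjustment. Called means an adjusted p of at most 0.05 and at least 2-fold. Single values of *SNAC2* and *JAMYB* were also tested by exact permutation (numpy 2.4.6). The fit was tested on simulated data. *NAC077* had been planned as a description, since an earlier analysis had picked its probe set by fold changes. Its adjusted p is given because the probe gene table names its probe set, which does not undo that choice. Markers, lists and members were chosen with earlier results of these data known. Named genes were the 4 members, *OsHOX24*, up to 4 genes of each list called in both genotypes in each direction, and the 5 genes most like each member by r; other genes of the lists and neighbouring genes are given to complete the counts, and those singled out for their values are said to have been picked afterwards. For genes with several probe sets the one of highest mean stood for the gene.

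Alternatives were median centring, quantile normalization, probe sets above the median mean, a replicate block and leaving out each array or replicate number 1. Others were a trended robust eBayes, 1 probe set a gene, no fold minimum and Student's t-test. The paper names that t-test in general and for the arrays refers to an earlier study. Protein and promoter sequences of the members were not analysed here.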

Additional observations from a re-analysis of the deposited data

How the results depend on the processing

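With DS all 4 genes kept their direction in both genotypes under every alternative run; *NAC077* has no value among probe sets above the median mean, and *SNAC2* and *JAMYB* have no second probe set to try. By Student's t-test after Benjamini-Hochberg adjustment none of the calls of *SNAC2*, *JAMYB* and *NAC077* held. Its adjusted p was 0.094 and 0.091 for *SNAC2* in WT and H49 (differences 1.36 and 1.23). It was 0.15 and 0.11 for *JAMYB* (1.37 and 1.88) and 0.14 for *NAC077* in WT (2.41). That test called 23 probe sets up and 20 down in WT and 683 and 722 in H49. By limma these counts were 1490 and 3170 in WT and 1527 and 3408 in H49. Without replicate number 1 in every group the calls of *SNAC2* in H49 (0.94, adjusted p = 0.085) and *JAMYB* in WT (1.61, 0.063) and H49 (1.53, 0.079) were lost, *NAC077* in H49 was called (1.61, 0.025), *JAMYB*'s difference of responses turned to -0.081, and 1566 (WT) and 1272 (H49) probe sets were called down. With 1 probe set a gene *NAC077* was called in H49 (1.24, adjusted p = 0.038). With 1 array left out, *SNAC2* in H49 ranged from 0.98 to 1.39, *JAMYB* in WT from 1.06 to 1.56, *NAC077* in H49 from 0.99 to 1.62, and the difference of responses of *SNAC2* from -0.37 to 0.032; probe sets called down ranged from 2009 (without WT control replicate 3) to 3328 in WT and from 2193 (without H49 control replicate 1) to 3533 in H49. The small genotype differences in control changed sign: *SNAC2* ranged from -0.15 to 0.26 with 1 array left out and was -0.017 after quantile normalization, and *JAMYB* ranged from -0.68 to 0.078 and was 0.13 without replicate number 1. With no fold minimum 2425 (WT) and 2439 (H49) probe sets passed upwards, and with 1 probe set a gene 747 and 797 genes were called up and 1283 and 1408 down of 15140. The counts of the NAC, MYB, stress-responsive NAC and jasmonate lists moved by over 1.5 times in 24 of 336 cases, 0 at the lowest. Of the 5 genes most like each of *SNAC2*, *JAMYB*, *NAC077* and LOC_Os05g37060, 1, 3, 3 and 0 were shared by Spearman ranks and 1, 1, 0 and 0 by deviations from the group means. The replicate numbers were not taken to pair the arrays, since 9 of 18 same-number pairs correlated above 0.1 (from -0.11 to 0.25); those between H49 control and H49 DS all did (0.14 to 0.19), and 10 of 12 arrays correlated best with their own number, a hint from the data and not the design. With the number as a block the WT differences of *SNAC2* (1.36, adjusted p = 0.0041), *JAMYB* (1.37, 0.028) and *NAC077* (2.41, 0.0096) kept their calls. In H49 *SNAC2* (1.23, adjusted p = 0.0058) and *JAMYB* (1.88, 0.007) kept theirs, and *NAC077* was again not called (1.24, 0.11). Under the block 1518 probe sets were called up and 3515 down in WT, and 1565 up and 3724 down in H49. Of the MYB list, 1 gene was called down in each genotype, against 0 without the block. The causes of these changes were not tested. With 3 arrays a group, the intervals of the difference of responses were wide (95% confidence, -0.58 to 1.60 for *JAMYB* and -2.51 to 0.18 for *NAC077*).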
